A study of Mus musculus with 4 samples.

Results

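The endoplasmic reticulum (ER) chaperones described here are 9 of the 31053 genes counted in single cells of the mouse brain: Calr, Canx, Hspa5, Hsp90b1, Pdia3, Pdia4, Pdia6, Xbp1 and Sdf2l1. They were taken by gene symbol, and each symbol matched 1 gene. The 9 genes were chosen by earlier results on these libraries, above all their levels in choroid plexus cells with and without inhibitors, so their values in that cell class are a description and carry no test.

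The brains of 4 C57BL/6J mice, all males at postnatal day 90, were digested enzymatically, and each animal gave 1 droplet library (10x Genomics 3′ version 2). In 2 animals no inhibitors were used. In the other 2 animals, actinomycin D and triptolide, which block transcription, were present from perfusion through dissection and digestion, and anisomycin, which blocks translation, was present in dissection and digestion. The meninges were removed as far as possible, all libraries are labelled as the same batch, and cells were not sorted, so the choroid plexus cells came from the whole-brain suspension.

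Proteins that a cell secretes or places on its surface fold in the ER, where chaperones hold them until they are mature. Hspa5 (BiP) and Hsp90b1 (GRP94) are the ER forms of the Hsp70 and Hsp90 chaperones, Calr and Canx are lectins that bind sugar chains on folding proteins, and Pdia3, Pdia4 and Pdia6 are protein disulfide isomerases. Xbp1 encodes a transcription factor of the unfolded protein response, the programme that raises ER chaperones when unfolded proteins build up, and Sdf2l1 is an ER-resident protein that works with BiP and its J-domain partners. The choroid plexus epithelium makes cerebrospinal fluid and secretes large amounts of transthyretin (Ttr).

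The promoters of several of these genes carry the ER stress response element (ERSE), through which the unfolded protein response acts. The consensus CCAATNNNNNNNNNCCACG was searched on both strands of RefSeq promoter windows on GRCm38.p6, from 250 bases before to 50 bases after each start site. It was present in 5 of the 9 genes and in 37 of the 26742 genes with a window (0.138%). The elements found are shown because they are a sequence feature that 5 of the 9 genes share. Each is given 5′ to 3′ in the orientation of the consensus, with its fixed ends in capitals.
Calr: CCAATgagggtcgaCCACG
Canx: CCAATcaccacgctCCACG
Hspa5: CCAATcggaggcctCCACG
Hsp90b1, distal: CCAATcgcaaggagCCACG
Hsp90b1, proximal: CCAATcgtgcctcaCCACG
Pdia6: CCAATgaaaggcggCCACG

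The Calr element was at chr8:84847075-84847093 and ran opposite to the gene. The Canx element was at chr11:50325800-50325818, that of Hspa5 at chr2:34772025-34772043 and that of Pdia6 at chr12:17266491-17266509, each in the gene's direction. Counted to the RefSeq start sites, the elements of these genes ended 144 bases (Calr), 127 bases (Canx), 47 bases (Hspa5) and 80 bases (Pdia6) before transcription begins. The Hspa5 element lies inside the gene's outer bounds in the GENCODE vM21 annotation, which start upstream of the RefSeq start site, at chr2:34771970.

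Hsp90b1 alone among the 9 had a pair of elements, at chr10:86705638-86705656 in the gene's direction and at chr10:86705533-86705551 in the other. Its promoter is shown over the stretch that holds both, chr10:86705527-86705662 on the minus strand, with the fixed ends of the elements in capitals. The proximal element reads as its reverse complement here.
Hsp90b1 promoter: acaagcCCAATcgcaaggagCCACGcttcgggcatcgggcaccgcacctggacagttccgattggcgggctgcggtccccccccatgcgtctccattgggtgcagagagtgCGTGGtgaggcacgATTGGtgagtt

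No window of Pdia3, Pdia4, Xbp1 or Sdf2l1 held this motif, nor any of 3 others that were searched. ERSE-II (ATTGG and CCACG with 1 base of any kind between them) was in 0 of the 9 genes against 0.0449% of all genes, and the core of the unfolded protein response element (TGACGTG) was in Hspa5 alone against 2.24% of all genes. The CARE motif of the integrated stress response (TGATGNAA) was in 0 of the 9 genes, against 4.44%. Among 79 other ER genes with a window, drawn from lists of folding, quality control and translocation genes, ERSE was found in Dnajc3, Creld2, Derl3 and Syvn1, and ERSE-II in Dnajb11, Herpud1 and Krtcap2. These are matches of letters in a fixed window, and no binding was measured.

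The genes lie on 7 chromosomes. GENCODE vM21 places Hspa5 at chr2:34771970-34777547 and Pdia3 at chr2:121413775-121438687, Canx at chr11:50293961-50325673 and Xbp1 at chr11:5520659-5525893, and Pdia4 at chr6:47796141-47813430. Calr is at chr8:84841850-84846934, Hsp90b1 at chr10:86690209-86705509, Pdia6 at chr12:17266545-17284770 and Sdf2l1 at chr16:17130138-17132383.

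Libraries held 5134359 to 7529804 UMIs (unique molecular identifiers, which count captured RNA molecules), and 9861 of 12487 barcodes were kept as cells. Clusters were named by marker genes and gave 14 classes, of which 9 had at least 20 cells in every animal. Choroid plexus-like cells numbered 617, with 147 and 195 cells in replicates 1 and 2 without inhibitors and 153 and 122 with inhibitors. All 8 choroid plexus markers were present in the class, and Ttr alone took 34.9% and 26.3% of its UMIs without inhibitors and 21.6% and 20.4% with inhibitors. Between 9 and 13 barcodes were shared by any pair of libraries.

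The first question was how the 9 genes stood in choroid plexus-like cells dissociated with and without the inhibitors. All 9 were higher without inhibitors in both animals of that group than in either animal with inhibitors. The median of their log2 fold changes (without over with inhibitors, here and below) was 0.81, against -0.01 over the 4535 genes tested in the class. Levels within a class are given as CPM, a gene's UMIs as a share of the class total put on a common scale, with totals scaled by TMM, and errors of fold changes are standard errors from edgeR.

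Hspa5, the ER Hsp70, was at 486 and 723 CPM without inhibitors and at 371 and 387 CPM with inhibitors, a log2 difference of 0.70 ± 0.15. Its ER Hsp90 counterpart, Hsp90b1, was at 503 and 675 CPM without inhibitors and at 290.0 and 405 CPM with inhibitors, a log2 difference of 0.82 ± 0.16. For both chaperones the highest library was replicate 2 without inhibitors, and the gap between the groups was smaller than the gap between the animals of that group for Hspa5. Without that library the log2 difference of Hspa5 was 0.40.

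The lectin pair moved in the same direction. Calr was at 514 and 548 CPM without inhibitors and at 243 and 251 CPM with inhibitors, a log2 difference of 1.11 ± 0.14. Canx was at 276 and 376 CPM against 182 and 202 CPM, a log2 difference of 0.80 ± 0.18. Replicates of Calr lay close together in both groups, whereas the Canx values without inhibitors were spread further apart than those with inhibitors. Both differences depended on the cells used. In cells of 1000 to 3000 UMIs they were 0.18 for Calr and -0.048 for Canx, and in cells thinned to 1000 UMIs 0.62 and 0.16.

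Of the disulfide isomerases, Pdia6 had the largest fold change of the 9 genes. It was at 201 and 242 CPM without inhibitors and at 88.5 and 70.4 CPM with inhibitors, a log2 difference of 1.45 ± 0.22. Pdia4 was at 120.1 and 169 CPM against 73.7 and 70.4 CPM, a log2 difference of 1.02 ± 0.25. Pdia3, the isomerase that works with the lectins, was at 300.3 and 324 CPM against 224 and 106 CPM, a log2 difference of 0.81 ± 0.20. Here the spread was among the animals with inhibitors, and replicate 2 of that group was far below its partner. With replicate 1 of that group left out, the log2 difference of Pdia3 was 1.57.

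Xbp1 had the fewest UMIs of the 9 genes and Sdf2l1 the smallest difference. Xbp1 was at 63.8 and 92.7 CPM without inhibitors and at 51.6 and 44.0 CPM with inhibitors, a log2 difference of 0.71 ± 0.30 that rested on 10 to 69 UMIs an animal. Sdf2l1 was at 148 and 198 CPM against 116 and 110.0 CPM, a log2 difference of 0.63 ± 0.22. Without replicate 2 of the untreated group the log2 difference was 0.41 for Xbp1 and 0.42 for Sdf2l1. The counts do not tell spliced from unspliced Xbp1 RNA. The 5 genes with an ERSE had log2 differences from 0.70 to 1.45, and the 4 without had 0.63 to 1.02, so the ranges overlapped.

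**Figure D1:**
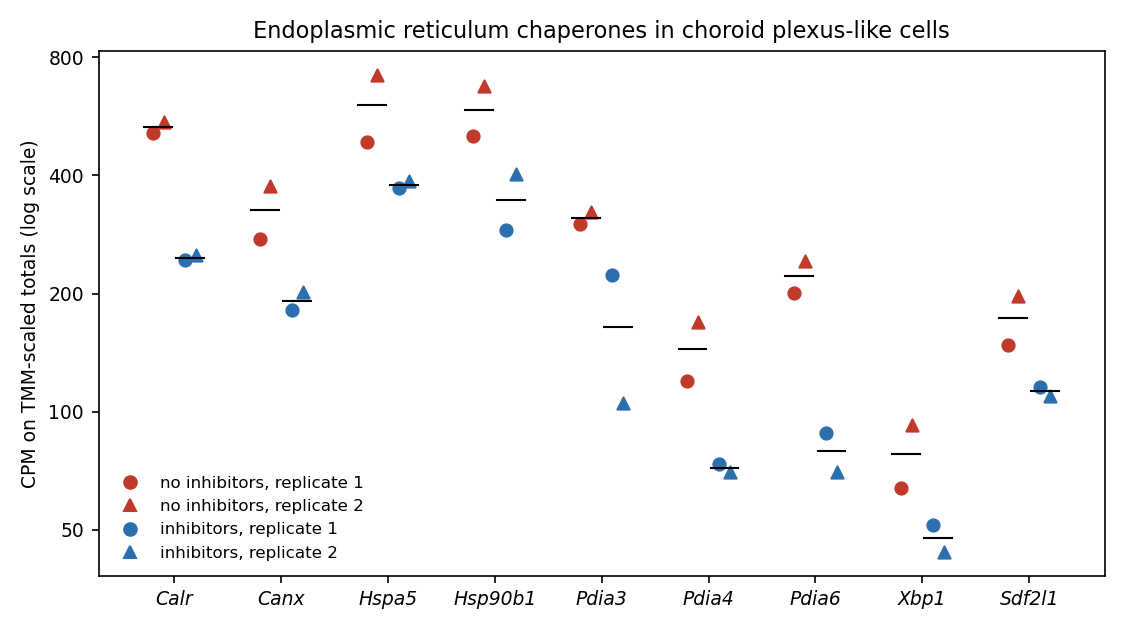
CPM (library totals scaled by TMM) of the 9 ER chaperone genes in choroid plexus-like cells, with 1 point for each of the 4 animals and a bar at each group's mean. For every gene both animals without inhibitors lie above both with inhibitors, and the largest ratio between the groups is that of Pdia6, at 201 and 242 CPM against 88.5 and 70.4 CPM.

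Groups apart in this direction were common in the class: 24.1% of all genes tested had both animals without inhibitors above both animals with inhibitors. By the rule used to call other genes (a log2 fold change beyond 0.58 in size with an edgeR adjusted p below 0.05), 7 of the 9 were past it and Xbp1 and Sdf2l1 were not, where 3.75% of all genes were called higher and 0.728% lower. Because the genes were chosen with this contrast in view, nothing is read from that count. Without a scaling factor the median over all genes moved by -0.18 and the calls over all genes went from 170 higher and 33 lower to 74 higher and 123 lower. The 9 genes stayed above 0 on that scale, with a median of 0.63.

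Choroid plexus-like cells came as 2 clusters that differed strongly in these genes. One cluster of 577 cells held most cells of each animal. The other had 40 cells of high depth (11 and 21 without inhibitors, 5 and 3 with inhibitors), with median UMIs per cell from 8138 to 13090 against 1321 to 2447 in the larger cluster. Both had all 8 choroid plexus markers.

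In the deep cluster the 9 genes together stood at 4537 and 5709 CPM (plain, without TMM) in animals without inhibitors and at 4986 and 5422 CPM in those with inhibitors. In the larger cluster they stood at 1520 and 1950 CPM against 1214 and 1065 CPM. Within each animal the deep cluster was thus 2.93 to 5.09 times higher for the sum. Calr was 3.28 to 4.30 times higher there, Canx 3.05 to 4.15 times, Hspa5 3.69 to 7.74 times and Hsp90b1 3.35 to 8.02 times, each in all 4 animals. The isomerases were 1.78 to 6.45 times higher and Xbp1 1.32 to 2.21 times, again in every animal, but Sdf2l1 was at 0.561 to 1.08 times the larger cluster's level and was higher in 2 of 4 animals. The 9 genes were left out of the variable genes used for the clustering. The contrast of clusters is a description and was not tested.

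The deep cluster differed in other ways as well. Its median share of mitochondrial UMIs was 10.9 to 16.5% per animal against 4.2 to 6.7% in the larger cluster, and the nuclear RNA Malat1 was at 3516 to 6657 CPM against 209 to 751 CPM. It supplied 21.4% and 33.0% of the class's UMIs without inhibitors and 12.2% and 13.4% with inhibitors, so its weight in the class moved with the group. In the larger cluster alone, all 9 genes were still higher without inhibitors, with log2 differences from 0.37 (Canx) to 1.62 (Pdia6). In the deep cluster alone, 8 genes passed the filter on low counts, and 4 were above 0 and 4 below, from -0.33 to 0.50. The part of the deep cells in the class-level difference was not tested.

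Cell depth moved with the group too. In choroid plexus-like cells without inhibitors the median UMI number was 2714 and 2378, and with them it was 1931 and 1340.5. Cells were therefore also compared in bins of depth, which were set after the data were seen. Below 1500 UMIs the 9 genes stood at 1162 ± 26.6 CPM without inhibitors and 1127 ± 76.6 with inhibitors (SD, n = 2 here and below), and the groups overlapped. From 1500 to 3000 UMIs they stood at 1955 ± 16.0 against 1380 ± 23.2 CPM, and from 3000 to 6000 UMIs 2133 ± 201 against 1217 ± 162. The groups did not overlap in these 2 bins, at log2 differences of 0.50 and 0.81. At 6000 UMIs and above the values were 3279 ± 1294 and 3936 ± 1210 and overlapped, with 38 and 39 cells against 9 and 2. A fit on the cells of 1000 to 3000 UMIs alone gave log2 differences of 0.39 for Hspa5, 0.51 for Hsp90b1, 0.26 for Pdia3, 0.38 for Pdia4, 1.56 for Pdia6 and 0.38 for Sdf2l1 beside those of the lectins above, and Xbp1 failed the filter.

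When each cell was thinned to 1000 UMIs at random, the mean number of UMIs from the 9 genes was 2.02 and 2.34 per cell without inhibitors and 1.57 and 1.30 with inhibitors. This left out 15 and 32 shallower cells without inhibitors and 23 and 34 with inhibitors. In the larger cluster alone the means were 1.48 and 1.78 against 1.38 and 1.15. At 2000 UMIs the means were 3.88 and 5.17 against 3.17 and 3.32 in the whole class, and 3.42 and 4.10 against 2.39 and 2.24 in the larger cluster. Both animals without inhibitors were above both with inhibitors each time, although in the larger cluster at 1000 UMIs the nearest pair, 1.48 and 1.38, was close. Each mean rests on a single random draw, and the spread between draws was not measured, so the order of that pair is not settled. Fold changes and calls given elsewhere for thinned cells came from a separate draw.

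**Figure D2:**
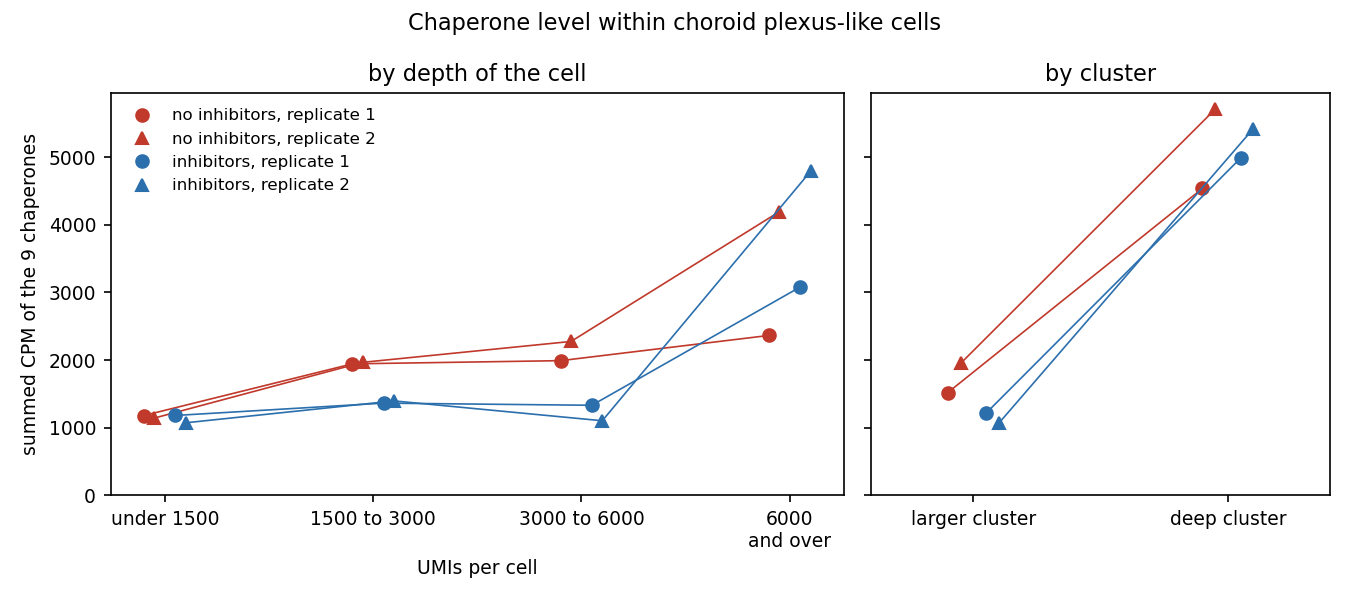
Summed plain CPM of the 9 ER chaperone genes in choroid plexus-like cells, per animal, by bins of UMIs per cell and by cluster. The groups overlap below 1500 and from 6000 UMIs and are apart between, and the deep cluster lies above the larger cluster in each of the 4 animals.

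Markers of other cell types were present at low levels in these cells and some moved with the group. The 8 oligodendrocyte markers summed to 356 and 369 CPM without inhibitors and to 650 and 1081 CPM with inhibitors, none at 0. The 6 erythrocyte markers, 1 of them at 0, summed to 374 and 533 against 161 and 260 CPM. The 9 astrocyte markers, none at 0, summed to 1639 and 1794 against 1189 and 1240 CPM, and the 8 endothelial markers, none at 0, to 360 and 421 against 274 and 322 CPM. Microglia markers (183 to 327 CPM over 8 genes) and ependymal markers (587 to 698 CPM over 7 genes) overlapped between the groups, with none at 0, and 5 of the 9 macrophage markers were at 0. The share of UMIs from ribosomal protein genes was 6.01% and 6.63% without inhibitors and 9.30% and 9.20% with inhibitors, and its part in the results was not tested. A further fit kept cells with at most 2 UMIs of microglia, endothelial, oligodendrocyte and erythrocyte markers together. Astrocyte and ependymal markers were not part of this limit. It kept 36 and 55 cells without inhibitors and 75 and 56 with them, none from the deep cluster. These were shallow cells, with median UMIs of 1346.5 and 1227 without inhibitors and 1584 and 1205 with inhibitors. In them the median over the 7 chaperone genes that passed the filter was 0.15, with Calr at -0.18 and Canx at -0.046. Of 13 other ER genes tested there, 0 were called. Ttr itself was found in every other class, at 1075 to 5553 CPM apart from 13602.5 CPM in mural-like cells of replicate 1 without inhibitors, and its source there was not tested.

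The remaining ER genes were then tested in choroid plexus-like cells, to see how the 9 stood within the wider folding and export machinery. Of 102 other ER genes on 8 lists, 64 passed the filter on low counts. Without inhibitors 19 of these were called higher and 0 lower, against 3.75% and 0.728% of all genes, and 48 had groups apart in the higher direction and 2 in the lower, against 24.1% and 24.9% of all genes. The median log2 fold change was 0.74, and 60 of the 64 were above 0, where 49.0% of all genes were. Since low genes pass the filter more easily when 1 group is high, the genes that failed it are not covered by these values. The count of 19 rose and fell with the cells used: it was 10 of 54 in the larger cluster (3.11% of all genes higher and 0.474% lower), 0 of 31 in the deep cluster (0% either way) and 1 of 20 after thinning to 1000 UMIs (0.973% and 0.195%). In cells of 1000 to 3000 UMIs it was 0 of 22 (0.427% and 0%). With all cells of the class it was 5 by DESeq2, 7 on total UMIs without a scaling factor, and 7 and 11 when replicate 1 or replicate 2 with inhibitors was left out.

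The largest change among these genes was in Prdx4, an ER peroxiredoxin that passes oxidizing power to the isomerases. It was at 75.1 and 73.9 CPM without inhibitors and at 19.7 and 21.99 CPM with inhibitors, a log2 difference of 1.85 ± 0.36 (edgeR quasi-likelihood test, Benjamini-Hochberg adjusted p = 0.00171). The groups were apart, but the level of Prdx4 with inhibitors was below that of Xbp1, which had 21 and 10 UMIs in those animals. Prdx4 was the only call of 10 tested genes on the list of isomerases and oxidation, whose median was 0.52. P4hb, the founding member of the isomerase family, was at 31.9 and 36.3 against 36.9 and 30.8 CPM (log2 -0.01 ± 0.37) and its groups overlapped. Creld2, a stress-induced ER protein, was at 0.86 ± 0.36 and was not called.

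Partners of the Hsp70 and Hsp90 chaperones moved with Hspa5 and Hsp90b1: 5 of the 9 tested were called higher and the median was 0.97. Dnajb11, the J-domain protein that brings unfolded chains to BiP, was at 86.3 and 102 CPM without inhibitors and at 51.6 and 30.8 CPM with inhibitors (1.11 ± 0.30, edgeR adjusted p = 0.0222). Dnajb9, a J-domain protein that holds the sensor Ire1 in check, was at 109 and 139.7 CPM against 71.3 and 52.8 CPM (0.97 ± 0.26, edgeR adjusted p = 0.0229). Manf, a secreted ER protein with affinity for BiP, was at 407 and 513 CPM against 265 and 268 CPM (0.80 ± 0.15, edgeR adjusted p = 0.00121), with groups that did not come near each other. Sdf2, the paralog of Sdf2l1, and Cnpy2 were the other calls, at 1.10 ± 0.30 and 0.78 ± 0.22. Dnajc3, a further BiP partner, was at 120.1 and 145 CPM against 59.0 and 101 CPM, and its log2 difference of 0.84 ± 0.26 missed the threshold (edgeR adjusted p = 0.0510). Hyou1, the exchange factor of BiP, failed the filter, with 4 and 9 UMIs in the untreated animals and 1 and 2 in the treated ones.

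Genes of protein export carried most of the remaining calls. On the list of translocation and glycosylation, 10 of 23 tested genes were called higher, with a median of 0.75. Dad1, a subunit of the oligosaccharyltransferase that attaches sugar chains, was at 589 and 516 CPM without inhibitors and at 295 and 255 CPM with inhibitors (0.98 ± 0.14, edgeR adjusted p = 4.9e-05). Its fellow subunits Rpn2 (1.61 ± 0.39), Krtcap2 (1.11 ± 0.26), Rpn1 (1.10 ± 0.33), Ostc (1.08 ± 0.25) and Tusc3 (0.95 ± 0.25) were called as well. The signal peptidase subunits Spcs1 (0.69) and Spcs2 (0.76), the translocon-associated Ssr4 (0.75) and the translocon partner Sec62 (0.85) completed the list. The translocon subunits Sec61b (-0.41) and Sec61g (-0.24) and the peptidase subunit Sec11c (-0.06) lay below 0 and were not called.

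The prolyl isomerases Ppib, at 218 and 204 CPM against 95.9 and 74.8 CPM (1.26 ± 0.21, edgeR adjusted p = 0.000412), and Fkbp2 (0.76 ± 0.15) were called, 2 of the 3 tested on their list. Among 12 tested degradation genes, Selenos (0.75 ± 0.20), which helps to draw proteins out of the ER, was the only call, and the median was 0.47. Herpud1, a stress-induced degradation factor, was at 41.3 and 59.1 against 41.8 and 26.4 CPM, with overlapping groups and a log2 difference of 0.51 ± 0.35. Of the calnexin cycle genes 0 of 4 were called (median 0.48) and of the retrieval receptors 0 of 2, with Kdelr2 at 0.03 ± 0.37. The sensors were too rare to test: Ern1 (Ire1) had 0 to 2 UMIs an animal, Atf6 2 or 3 and Eif2ak3 (PERK) 1 to 4, and of 9 sensor genes only Creb3 passed the filter, at 0.91 with no call.

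Other lists show how far the pattern reached. Of 21 cytosolic chaperones tested, Cct4 (1.03 ± 0.23) and Hspa8 (0.75 ± 0.10) were called higher, with a median of 0.46, and of 6 mitochondrial chaperones Hspd1 (0.82 ± 0.24), with a median of 0.18. The integrated stress response genes had 0 calls of 4 and a median of -0.33. Its central factor Atf4 was at 50.7 and 21.5 CPM without inhibitors and at 49.2 and 57.2 CPM with inhibitors, and Ddit3 (CHOP) was at 35.7 and 40.3 against 36.9 and 44.0 CPM, both with overlapping groups. Of 20 genes for proteins the choroid plexus secretes or carries on its surface, 9 were called higher, with a median of 0.57. These included Folr1 (1.03 ± 0.13), 1500015O10Rik (0.95 ± 0.12), Kcnj13 (0.93 ± 0.17) and Ttr (0.75 ± 0.16, edgeR adjusted p = 0.00396). Folr1 and 1500015O10Rik are genes that the study had already set apart on these libraries, so their direction is not independent evidence.

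**Figure D3:**
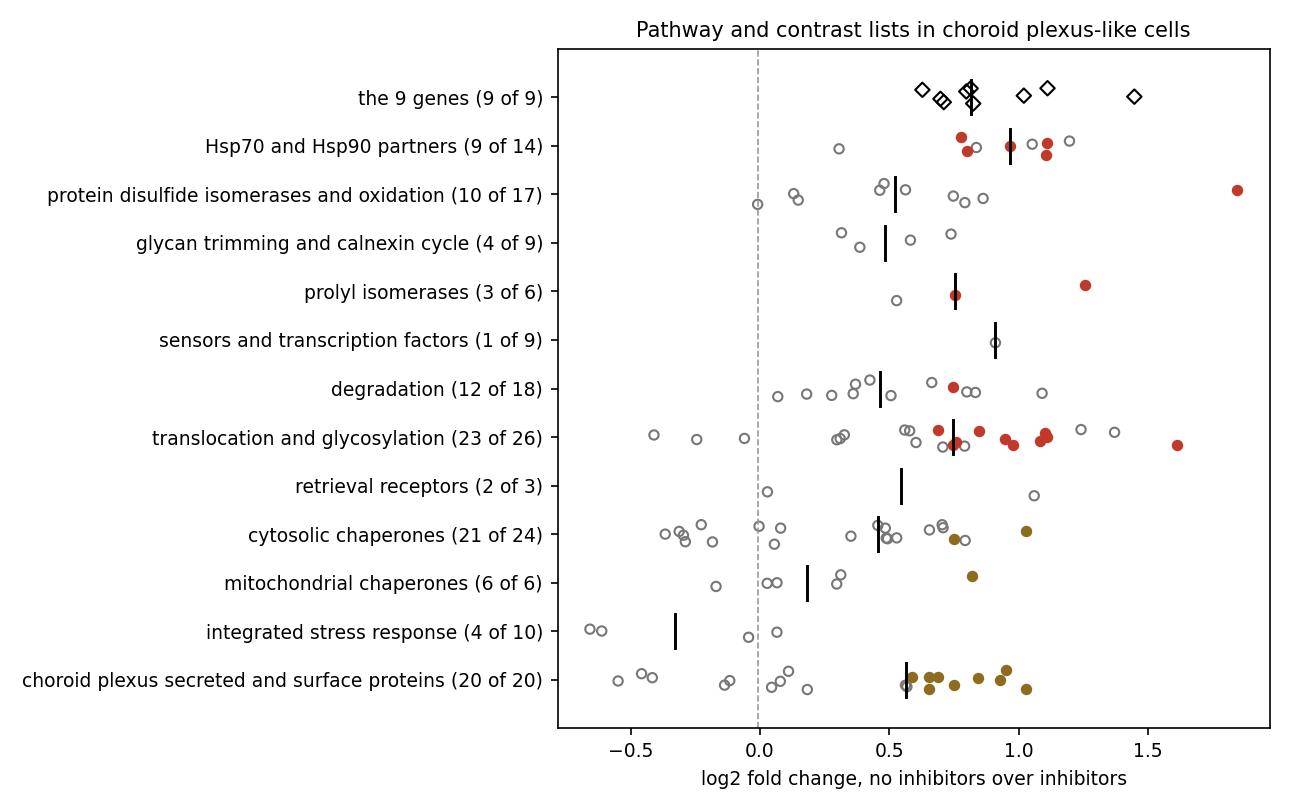
Log2 fold change (without over with inhibitors) in choroid plexus-like cells for each tested gene of the ER lists and the contrast lists, with filled points for genes called by edgeR, open points for the others, diamonds for the 9 ER chaperone genes and a bar at each list's median. The 9 genes lie between 0.63 and 1.45, the median of all 4535 genes is -0.01 (dashed line), and the integrated stress response is the list with a median below 0.

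Whether the difference was larger in choroid plexus-like cells than in the rest of the brain was tested as an interaction, with the animal as a block. Of 99 other ER genes tested, 6 had a larger difference in choroid plexus-like cells and 0 a smaller one (edgeR quasi-likelihood test), against 0.456% and 0.101% of all genes. At an unadjusted p under 0.05 there were 32 (32.3%), against 6.97% of all genes. The 6 were Prdx4, Rpn2, Ppib, Krtcap2, Dad1 and Sec62. The median over the 99 genes was 0.61, against 0.07 over 12927 genes. For the 9 chaperones the same differences are given as values only: 1.32 ± 0.27 for Pdia6, 1.18 ± 0.20 for Calr, 0.95 ± 0.30 for Pdia4, and from 0.47 ± 0.19 (Hspa5) to 0.82 ± 0.22 (Canx) for the others. After thinning to 1000 UMIs 0 genes were called, and without the animal block 2. Leaving out replicate 1 without inhibitors, replicate 1 with inhibitors or replicate 2 with inhibitors left 1 call each.

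In the other 8 classes the 9 genes showed no difference between the groups that passed the test. The 9 genes were chosen with results of these libraries known, so their p-values and calls are a description of these data only. Of 66 tests, 0 were called by edgeR and 0 by DESeq2, and 9 had an unadjusted p under 0.05, of which 7 were higher without inhibitors. These were 13.6% of the tests, where 2.39 to 9.75% of all genes in a class had such a p. The share of all genes called higher was 0.0358% in astrocyte-like, 0.0242% in endothelial-like, 0% in ependymal-like, 0.416% in macrophage/monocyte-like, 0.445% in microglia-like, 0.0888% in mural-like, 0.0288% in neuron-like and 0.184% in oligodendrocyte-like cells, so few calls were made there in any gene. The share called lower was 0.0121% in endothelial-like, 0.0114% in microglia-like, 0.0222% in mural-like and 0.0154% in oligodendrocyte-like cells and 0% in the other classes. Fold changes of the 9 genes ran from -1.45 (Xbp1 in macrophage/monocyte-like cells) to 1.16 (Hsp90b1 in the same cells) on the log2 scale, and 42 of the 66 were above 0.

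Ependymal-like cells line the ventricles beside the choroid plexus. There Hspa5 was at 923 and 1461 CPM without inhibitors and at 759 and 968 CPM with inhibitors (0.49 ± 0.20, edgeR adjusted p = 0.996), with overlapping groups. It was called at a log2 difference of 0.79 when replicate 1 without inhibitors was left out. In macrophage/monocyte-like cells Xbp1 was at 151 and 56.6 CPM without inhibitors and at 218 and 353 CPM with inhibitors, on 4 to 16 UMIs an animal, the reverse direction of that in choroid plexus-like cells and not called (edgeR adjusted p = 0.692). The median over the chaperones was between -0.04 and 0.18 in these 8 classes. In all cells together, which include the choroid plexus-like cells, it was 0.17. There 0 of 9 were called, where 0.0435% of genes were called higher and 0% lower. The other ER genes gave 540 tests in these classes, with 0 calls by edgeR, 0 by DESeq2 and 30 at an unadjusted p under 0.05.

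Levels between classes are given as plain CPM, since the scaling within a class rests on different genes in each. Orders of classes, here and below, cover the 9 tested classes alone. Of the classes too small to test, fibroblast-like cells with inhibitors were above every tested class for the sum, at 4242 and 3746 CPM. Neural progenitor-like cells with inhibitors were below every tested class, at 602 and 784 CPM. With inhibitors present, the 9 genes together were highest in ependymal-like cells, at 3358 ± 263 CPM (SD, n = 2), followed by microglia-like cells at 2353 ± 30.7 and mural-like cells at 1747 ± 56.2, each apart from the next in order. Choroid plexus-like cells came next, at 1662 ± 16.7 CPM, but at rank 7 on totals scaled by TMM within each class. Their place also depended on Ttr, which took 21.6% and 20.4% of their UMIs. With Ttr left out of the total of this class alone, the 9 genes stood at 2134 and 2073 CPM. Astrocyte-like (1636 ± 26.6), neuron-like (1594 ± 214), endothelial-like (1582 ± 125) and macrophage/monocyte-like cells (1417 ± 194) each overlapped with the class above it in the order. Oligodendrocyte-like cells were lowest of the 9 tested classes, at 988 ± 12.3 CPM. The ratio of ependymal-like to choroid plexus-like cells was 2.02, with Ttr kept in the totals.

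Without inhibitors choroid plexus-like cells stood higher in the order. Ependymal-like cells came first at 3539 ± 526 CPM, then choroid plexus-like cells at 2679 ± 724 and microglia-like cells at 2388 ± 270, and these neighbours overlapped. The choroid plexus value had the largest SD of the 9 classes, at 2167 CPM in replicate 1 and 3191 CPM in replicate 2. With Ttr left out of the total of this class alone, these animals stood at 3330 and 4329 CPM.

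Gene by gene, with Ttr kept in the totals, 2 patterns were seen. Ependymal-like cells with inhibitors were highest for Calr (531 ± 33.7 CPM), Hspa5 (736 ± 124), Hsp90b1 (775 ± 111), Pdia4 (360.2 ± 20.01) and Pdia6 (228 ± 32.0), each apart from the next class. For Pdia4 the next class, microglia-like cells, was at only 83.6 ± 3.3 CPM. Ependymal-like cells were also first for Canx (304 ± 42.2) and Pdia3 (316 ± 25.6), where they overlapped with the next.

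Xbp1 and Sdf2l1 followed another order. Microglia-like cells with inhibitors were highest for both, at 270.3 ± 7.4 CPM for Xbp1 and 346 ± 10.8 CPM for Sdf2l1, apart from macrophage/monocyte-like cells at 206 ± 64.5 and 150.1 ± 76.5 CPM. On totals scaled by TMM within each class the macrophage/monocyte-like cells came first for Xbp1 and microglia-like cells next, while microglia-like cells stayed first for Sdf2l1. Choroid plexus-like cells were lowest of the 9 classes for Xbp1, at 48.4 ± 6.1 CPM, and came after microglia-like and macrophage/monocyte-like cells for Sdf2l1, at 114 ± 5.4 CPM. Endothelial-like cells had the least Sdf2l1, at 16.7 ± 0.80 CPM. Choroid plexus-like cells came right after ependymal-like cells for Hspa5, at 384 ± 6.6 CPM and apart from the classes on either side. They did so too for Hsp90b1, at 351 ± 77.7 CPM and overlapping with the next class. On totals scaled by TMM within each class they were at rank 2 for Hspa5 and rank 4 for Hsp90b1.

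**Figure D4:**
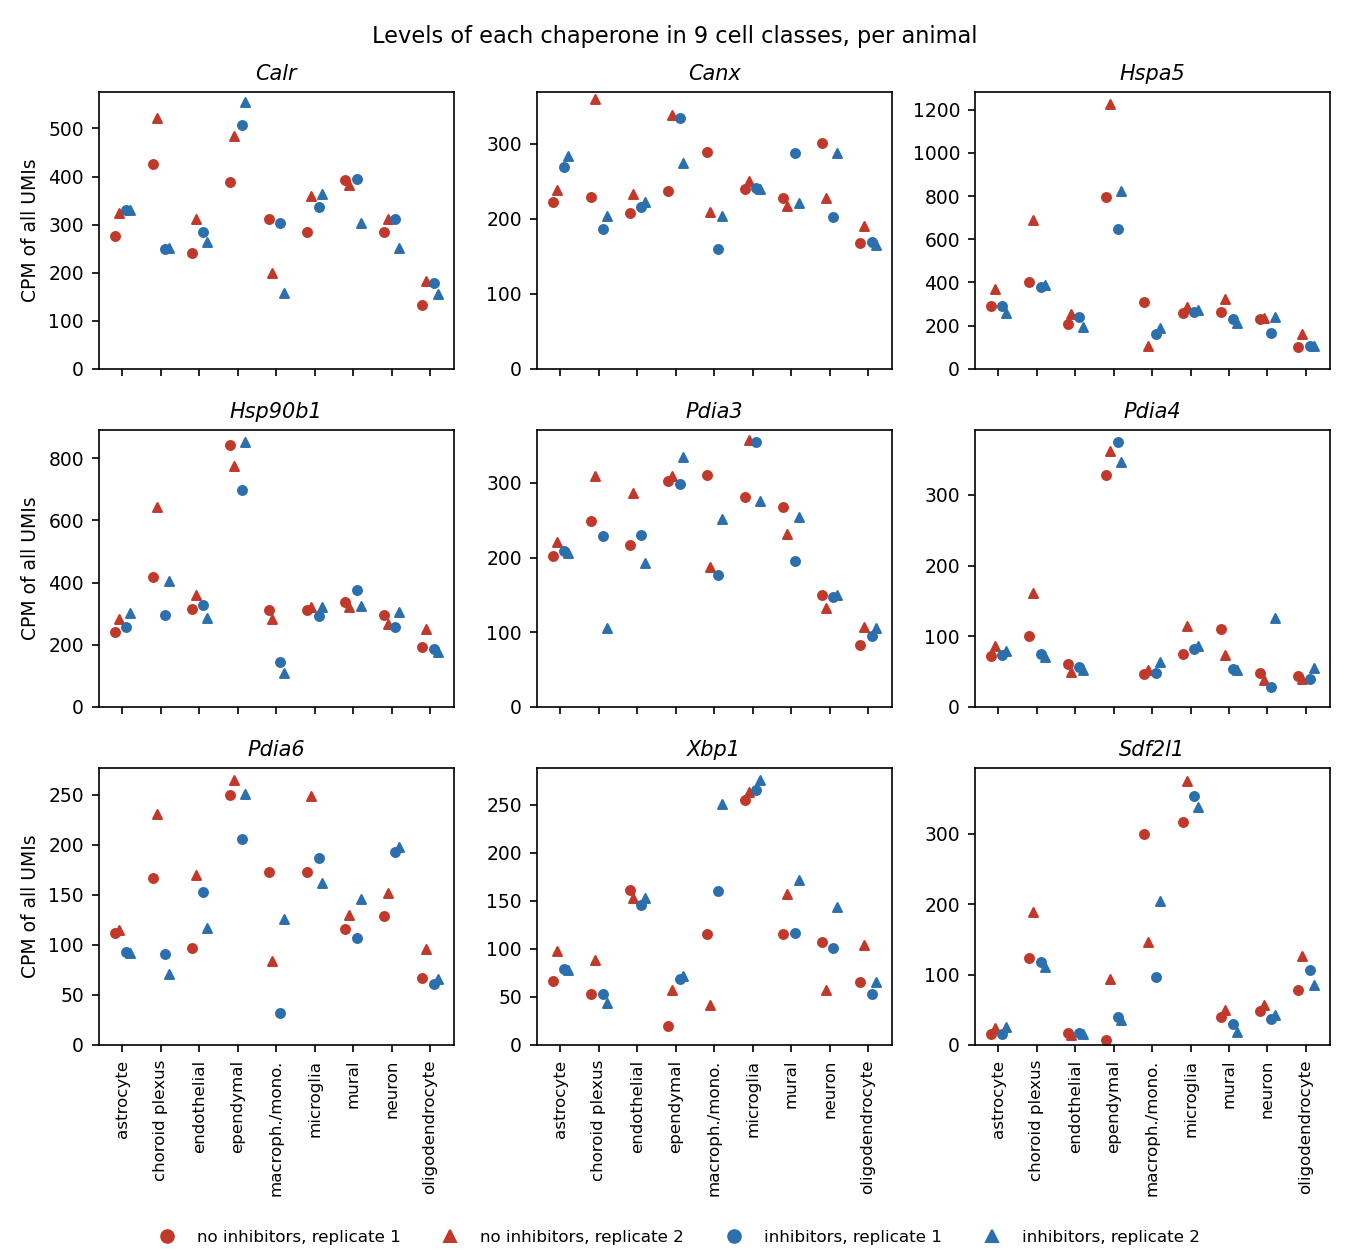
Levels (plain CPM) of each of the 9 ER chaperone genes in the 9 tested cell classes, per animal and group. By the means with inhibitors, ependymal-like cells stand first for Calr, Canx, Hspa5, Hsp90b1, Pdia3, Pdia4 and Pdia6. Microglia-like cells stand first for Xbp1 and Sdf2l1, although on totals scaled by TMM within each class macrophage/monocyte-like cells are first for Xbp1.

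Across the 36 points of 9 classes in 4 animals, which share animals and libraries, the genes were correlated to different degrees on log2(CPM + 1). Pearson's r was 0.85 between Hspa5 and Hsp90b1, and 0.85 between Hspa5 and Pdia4. Xbp1 had r from -0.35 (with Hsp90b1) to 0.32 (with Pdia3), and Sdf2l1 from -0.20 to 0.30. Among 19766 other genes, those nearest to the sum of the 9 were Ptgr1 (r = 0.77), Cfap161 (0.77), Xylb (0.76), Cacna1s (0.76) and Maats1 (0.75), at mean levels of 5.37 to 40.3 CPM. None of these is on an ER list. Tmx1, an ER thioredoxin-like isomerase that is on a list, was next at 0.75.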

How the data were processed

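The authors deposited raw UMI counts per gene and barcode for each of the 4 libraries, made with Cell Ranger 3.0.0 on mm10 per the submitters' processing notes. Totals were 5901973 and 7529804 UMIs in the libraries without inhibitors (replicates 1 and 2) and 5134359 and 6276447 in those with them. Barcodes with under 400 genes or over 20% mitochondrial UMIs were removed (10067 passed), as were 206 doublets (2.05%) scored against simulated doublets with 20 neighbours. Counts scaled to 10000 were clustered (2000 variable genes, 30 principal components, 15 neighbours, Leiden resolution 1, leidenalg 0.10.2), and the 26 clusters were named by at least 3 markers. These naming limits were set on these data. The names are rebuilt and may differ from the study's.

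Counts were summed per animal and class and tested in R 4.3.3 with the package edgeR, version 4.0.16 (genes filtered by filterByExpr, TMM scaling, robust quasi-likelihood test, Benjamini-Hochberg adjustment over all genes), without a batch term, with DESeq2 1.42.0 as an alternative. A call needed an adjusted p below 0.05 and a log2 fold change beyond 0.58 in size. The fits were tested on simulated data with 200 changed genes. Each library is 1 animal, so p-values measure the spread between these animals. Genes were named by a rule: the 9 genes, up to 20 called ER genes with groups apart, a set of 13 well-known ER genes whatever their result, up to 3 calls per contrast list, and the 5 nearest patterns. Sec61b, Sec61g, Sec11c, Creb3, Derl3, Syvn1, Tmx1 and Tmx4 were named after their values were seen. The genes and lists were chosen with earlier results of these data known. Protein sequences were not used here.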

Additional observations from a re-analysis of the deposited data

Results flagged for a closer look

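For 6 ER genes the difference between dissociation without and with inhibitors was itself larger in choroid plexus-like cells than in all other cells of the same animals, by an interaction test over 4 animals (edgeR quasi-likelihood test with the animal as a block, Benjamini-Hochberg adjustment). The differences of log2 fold change were 1.71 ± 0.44 for Prdx4 (adjusted p = 0.0238), 1.54 ± 0.38 for Rpn2 (adjusted p = 0.0153) and 1.20 ± 0.26 for Ppib (adjusted p = 0.00339). They were 1.05 ± 0.28 for Krtcap2 (adjusted p = 0.0337), 0.92 ± 0.20 for Dad1 (adjusted p = 0.00339) and 0.81 ± 0.21 for Sec62 (adjusted p = 0.0318). Of these 6 calls 0 were left after thinning to 1000 UMIs, and the number called was 2 without the animal block and 1 when replicate 1 without inhibitors or either animal with inhibitors was left out. In choroid plexus-like cells each of the 6 had both animals without inhibitors above both with inhibitors, as did 24.1% of all genes tested in the class. The 6 were called from the same cells and animals, so this order adds no support. The Prdx4 level with inhibitors was below that of Xbp1, which had 21 and 10 UMIs in those animals. The share of UMIs from the deep cluster and the depth per cell moved with the group in the same cells, and their part in these differences was not tested.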

How the results depend on the processing

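In choroid plexus-like cells the 19 ER genes called higher became 7, with 1 lower, on total UMIs without a scaling factor, and 5 with DESeq2. They became 1 of 20 tested in cells thinned to 1000 UMIs and 0 of 22 in cells of 1000 to 3000 UMIs. They became 0 of 13 in cells with at most 2 UMIs of microglia, endothelial, oligodendrocyte and erythrocyte markers. In the larger cluster they became 10 of 54 and in the deep cluster 0 of 31. The smaller numbers of cells and of genes tested are part of each of these settings. Leaving out 1 animal gave 7 to 20, with 7 when replicate 1 of the treated group was absent and 11 when its replicate 2 was. The other settings gave 14 to 21.

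The median log2 fold change of the 9 genes (0.81) was 0.38 in cells of 1000 to 3000 UMIs and -0.055 in the deep cluster. With 1 animal left out it was 0.62 to 1.00. It was 0.15 in cells with few UMIs of microglia, endothelial, oligodendrocyte and erythrocyte markers. Signs turned for Calr (-0.18) and Canx (-0.046) in cells with few such UMIs, for Canx (-0.048) at 1000 to 3000 UMIs, and for Hspa5 (-0.33), Hsp90b1 (-0.30), Pdia3 (-0.32) and Pdia4 (-0.32) in the deep cluster. The cause was not tested. In the other 14 of 17 settings all of the genes that passed the filter stayed above 0. The cluster settings were chosen after seeing the data.

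In the other classes and all cells, calls among the 9 genes were 0 to 2 with 1 animal left out (Hspa5 at 0.63 in all cells and at 0.79 in ependymal-like cells, both without replicate 1 of the untreated group), and among the other ER genes 0 to 1. That 1 call was Tmx4 in microglia-like cells, which also passed with no filter (1), with doublets kept (1), after thinning (1) and with the replicate block (1). The interaction gave 6 calls, 0 after thinning, 2 without the animal block and 1 to 4 with 1 animal left out. The ratio of ependymal-like to choroid plexus-like cells was 2.40 on TMM-scaled totals.

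Same-numbered animals were not shown to be paired (r = 0.11 over all cells, -0.19 to 0.08 in the classes, with 2 pairs). Olfactory ensheathing-like cells, however, occurred only in replicate 1 of each group, with 29 cells without inhibitors and 32 with them. Whether same-numbered animals were handled together was not tested. With the replicate number as a block, 21 ER genes were called in choroid plexus-like cells and the median of the 9 genes was 0.77. With 2 animals per group and 3 to 21 deep cells each, depth limits what the deep cluster can show.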

Other observations

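Classes with too few cells for a test in some animal also held these genes, and their values are given per animal without comparison. In fibroblast-like cells (128 cells) the 9 genes together were at 3240 and 5352 CPM without inhibitors and at 4242 and 3746 CPM with inhibitors. Calr there ran from 514 to 1047 CPM and Hspa5 from 709 to 1504 CPM. Oligodendrocyte precursor-like cells (74 cells) were at 1843 to 2601 CPM for the sum, and Sdf2l1 there ran from 167 to 274 CPM. Olfactory ensheathing-like cells (61 cells) occurred in replicate 1 of each group alone, at 1564 and 1701 CPM. Neural progenitor-like cells (107 cells) were at 602 to 784 CPM and erythrocyte-like cells (73 cells) at 685 to 936 CPM. Of these classes the fibroblast-like cells had the highest sum of the 9 genes in each animal. Sdf2l1 was higher in oligodendrocyte precursor-like cells than in fibroblast-like cells in each animal.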
